A study of Mus musculus with 40 samples.

Results

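The 37 genes of the mouse mitochondrial chromosome, whose symbols start with mt-, were followed through 40 libraries of RNA from the ventral tegmental area (VTA), a midbrain region known for its dopamine neurons. They were picked by symbol alone from the 55471 rows of the count table, and comprise 13 mRNAs, 2 rRNAs and 22 tRNAs. The libraries form 8 groups of 5, given by strain (C57/Bl6 or DBA), sex, and rearing: adult mice had either been raised under repeated cross fostering (RCF), in which pups were passed to a different adoptive mother on each day between postnatal days 1 and 4, or were unhandled controls. Frozen brains were punched, total RNA was purified, and stranded mRNA libraries were read as single 75-nt reads. The labels name no allele, transgene or drug in any group, and they do not say which animal or litter a library came from, so p-values measure the spread between libraries, which may be partly technical.

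The mitochondrial chromosome is a small circle that encodes core subunits of the respiratory chain and of ATP synthase, together with the rRNAs and tRNAs used to translate them inside the organelle. Both of its strands are copied into long transcripts that run through many genes and are then cut, mostly at the tRNAs, into single mRNAs, rRNAs and tRNAs. All other proteins of the mitochondrion, including most respiratory chain subunits, are encoded in the nucleus, and stretches of mitochondrial DNA have also been copied into nuclear chromosomes over evolutionary time.

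Total counts ran from 16913124 to 28179071 per library. Tissue content varied widely between punches. Th, the gene of tyrosine hydroxylase in the dopamine pathway, ranged from 0.655 to 1603 CPM (counts scaled to a common library size), with 11 libraries above 400, and Slc6a3, the dopamine transporter, from 0.46 to 2885 CPM, so dopamine neuron markers were near 0 in part of the libraries. Slc17a7, a vesicular glutamate transporter typical of forebrain neurons, exceeded 400 CPM in 4 libraries: C57 control male replicates 1 and 5, C57 RCF female replicate 4 and DBA control female replicate 3. C57 control male replicate 5 also stood apart in strain. Over 67 nuclear genes at least 8-fold higher in DBA than in C57, its median level lay 24.0% of the way from C57 to DBA. Each of the other 39 libraries was likewise placed between its own strain and the other, over genes at least 8-fold higher in the other strain (34 or more genes). Their medians lay -1.97% to 0.831% of the way to the other strain. The main strain, RCF and sex results that use this library are also given without it.

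Pseudogenes on chromosome 1 match a run of mitochondrial genes, and the counts of most genes in that run were almost absent. In GENCODE M21 (GRCm38), 7 unprocessed pseudogenes at chr1:24611535-24616188, minus strand, lie in the order and with nearly the spacing of the mitochondrial segment chrM:6390-11042, plus strand. The nuclear segment is 4654 nt long and the mitochondrial one 4653 nt, and the 7 pairs are 99.7% to 100% identical. The first bases of 2 pairs are printed because the counts of these pairs are described next. Capitals mark the base that differs between mt-Nd3, a subunit of complex I, and its copy Gm28438. The stretch of mt-Co2, a subunit of complex IV, is the same in its copy Gm28661. The positions are chrM:9459-9533 (+), chr1:24613045-24613119 (-) and chrM:7013-7087 (+).
mt-Nd3: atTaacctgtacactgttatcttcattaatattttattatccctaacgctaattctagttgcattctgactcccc
Gm28438: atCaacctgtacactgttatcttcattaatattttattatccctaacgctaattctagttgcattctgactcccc
mt-Co2: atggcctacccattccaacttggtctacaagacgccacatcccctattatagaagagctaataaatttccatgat
Over 345 aligned bases the only difference of Gm28438 from mt-Nd3 was T3C, counted from 1 at the first base of mt-Nd3. Over 483 bases the only difference of Gm29216 from mt-Co1 was A1066T, counted from the first base of mt-Co1. The other 5 pairs had none.

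The segment holds 11 of the 37 genes whole: the mRNAs mt-Co2, mt-Atp8, mt-Atp6, mt-Co3, mt-Nd3 and mt-Nd4l and the tRNAs mt-Ts1, mt-Td, mt-Tk, mt-Tg and mt-Tr. Together these 11 had 7723 counts over all 40 libraries, which was 0.0129% of the 59952109 counts of the 37 genes. mt-Co2, mt-Atp6 and mt-Co3 had medians of 1, 0.5 and 0.5 counts per library, and mt-Atp8, a small subunit of ATP synthase, had a median of 0. mt-Nd4l had a median of 146.5 counts and mt-Nd3 of 36. By contrast, the 5 mRNAs wholly outside the segment had medians between 2215.5 and 270250 counts. The levels of the 6 mRNAs of the segment are therefore not read as their abundance in the tissue.

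The share of 75-nt windows that also occur, letter for letter, in an annotated nuclear transcript was 99.5% for mt-Co2, 99.5% for mt-Atp6, 99.9% for mt-Co3, 97.8% for mt-Nd3 and 98.7% for mt-Nd4l. It was 61.5% for mt-Nd4 and 39.8% for mt-Co1, which lie partly inside the segment, 5.71% for mt-Nd2, 1.66% for mt-Nd5, and 0% for mt-Nd1, mt-Nd6, mt-Cytb and both rRNAs. mt-Atp8 shared none with an annotated transcript. On chrM it begins in the 233-nt stretch between the matched parts of mt-Co2 and mt-Atp6, and its end overlaps the start of mt-Atp6. The stretch of 233 nt between the copies on chromosome 1 was not analysed here. The 7 pseudogenes themselves drew 87855 counts in all, equal to 0.147% of the counts of the mitochondrial genes, with 1447 to 3325 per library. How the authors counted reads that match several places is not given in the sources used here, and its part in these low counts was not tested.

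**Figure D1:**
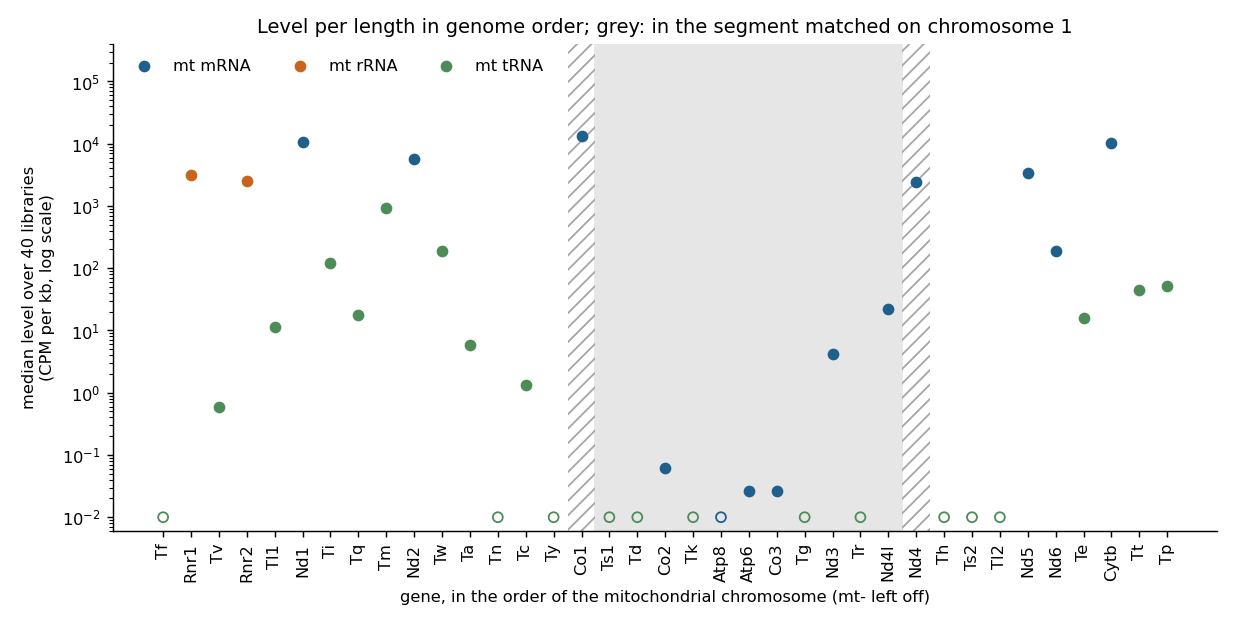
Median level over 40 libraries of each of the 37 genes in CPM per kb (log scale), in the order of the mitochondrial chromosome; blue points are mRNAs, orange rRNAs and green tRNAs, and open points on the lowest line had a median of 0. Grey marks the 11 genes that lie whole in the segment matched on chromosome 1 and hatching the 2 that lie partly in it; levels drop inside the grey band, from 13231 CPM per kb for mt-Co1 at its edge to at most 22.0 CPM per kb within it.

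Nearly all mitochondrial counts came from the genes that do not lie whole in the matched segment. All 37 genes together held 6.41% of all counts, of which mRNAs made up 89.6%, rRNAs 10.2% and tRNAs 0.153%. Per kb of annotated length, mt-Co1, the catalytic core of cytochrome c oxidase (complex IV), had the highest median level at 13231 CPM per kb, followed by the complex I subunit mt-Nd1 at 10777 and mt-Cytb, the cytochrome of complex III, at 10179. The complex I subunits mt-Nd2, mt-Nd5 and mt-Nd4 had 5597, 3399 and 2389 CPM per kb. mt-Nd6, the only mRNA encoded on the opposite strand, had 187 CPM per kb. The rRNAs of the small and large ribosomal subunits, mt-Rnr1 and mt-Rnr2, had 3118 and 2502 CPM per kb in these mRNA libraries. With all its counts divided by its unshared windows alone, mt-Co1 had 23098 and mt-Nd4 had 6558 CPM per kb of window starts. These values hold only if the shared windows drew no counts, which was not tested.

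The mRNAs mt-Co1, mt-Cytb, mt-Nd1, mt-Nd5 and mt-Nd2 held 94.2% of the counts of the 13. Their proportions were not equally steady between libraries. mt-Co1 took 35.2% ± 0.863 (SD, n = 40) of a library's mitochondrial mRNA counts, with a range of 32.6% to 37.3%. mt-Nd1 took 17.8% ± 0.796, with means of 17.4% in C57 and 18.1% in DBA. mt-Nd5 took 11.1% ± 0.936, with a range of 9.54% to 13.3%. Its group means ran from 9.85% in DBA control females to 12.6% in C57 RCF males. The 13 include the 6 mRNAs of the matched segment, whose levels are not read as abundance, and mt-Co1 and mt-Nd4, which lie partly in it. The proportions therefore describe the counts and not the mitochondrial mRNAs of the tissue.

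Of the 22 tRNAs, 6 had no count in any library (mt-Ts1, mt-Td, mt-Tk, mt-Tg, mt-Th and mt-Ts2, of which the first 4 lie in the matched segment), and 12 never reached 10 counts. A count of 0 in 40 libraries allows up to 0.00321 CPM, for counting error only. The 4 tRNAs with the highest mean counts are printed because nearly all tRNA counts came from them, with their anticodons in capitals. They carry methionine, tryptophan, isoleucine and proline, and lie at chrM:3845-3913 (+), chrM:4950-5016 (+), chrM:3706-3774 (+) and chrM:15356-15422 (-).
mt-Tm: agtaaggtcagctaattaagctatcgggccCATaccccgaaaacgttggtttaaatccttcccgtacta
mt-Tw: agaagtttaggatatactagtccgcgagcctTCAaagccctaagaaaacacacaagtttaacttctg
mt-Ti: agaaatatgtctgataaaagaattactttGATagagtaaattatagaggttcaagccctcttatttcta
mt-Tp: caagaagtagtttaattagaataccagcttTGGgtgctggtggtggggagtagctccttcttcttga
These 4 held 92.8% of tRNA counts, and mt-Tm alone, which sits directly before mt-Nd2, held 66.8%. Their medians were 1520.5, 306.5, 198.5 and 84 counts per library. Of the tRNA genes, 21 are shorter than the 75-nt read, so a full-length read assigned to one of them also covered bases outside it.

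DBA libraries had fewer mitochondrial counts than C57 libraries in every class of gene. The share of a library's counts in the 37 genes was 5.72% in DBA and 7.11% in C57 (means of 20 libraries each), a fall of 19.5% relative to C57. For mRNAs the shares were 5.18% and 6.32%, for rRNAs 0.539% and 0.780%, and for tRNAs 0.00888% and 0.0108%. In permutation tests of these differences within sex and treatment (100000 resamples, 2-sided), adjusted over 28 share tests, p was 0.00014 for all 37 genes, 0.000187 for mRNAs, 0.00014 for rRNAs and 0.00357 for tRNAs. The unadjusted p of 1e-05 for all genes and for rRNAs is the smallest these resamples can give. Without C57 control male replicate 5 the difference over all 37 genes was -1.31 percentage points, against -1.38 with it (adjusted p 0.000933 from 10000 resamples). It was then -1.08 for mRNAs and -0.231 for rRNAs (both adjusted permutation p 0.000933) and -0.00185 for tRNAs (0.0056). Counting error on a library's share was at most 0.0113 percentage points (half-width of the 95% Wilson interval), far below the spread between libraries. In punches of tissue, fewer cells of a type and less RNA per cell cannot be told apart.

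The libraries of the strains overlapped in some groups and not in others. In control males, the share of all 37 genes was 6.63%, 7.32%, 7.65%, 7.88% and 8.77% in the C57 libraries and 4.53%, 6.80%, 5.67%, 4.74% and 6.25% in the DBA libraries. Only 1 DBA library there exceeded the lowest C57 library. In RCF males, it was 6.80%, 7.19%, 7.63%, 7.41% and 6.52% in C57 and 5.13%, 4.92%, 5.14%, 5.32% and 5.18% in DBA, with no overlap. In control females, it was 7.15%, 6.57%, 6.58%, 6.63% and 7.12% in C57 and 6.16%, 6.62%, 5.77%, 6.27% and 7.72% in DBA. Here the groups overlapped, and a DBA library was the highest of the 10. In RCF females, it was 6.33%, 6.95%, 7.44%, 6.63% and 6.93% in C57 and 5.66%, 5.83%, 6.47%, 4.75% and 5.55% in DBA, where 1 DBA library exceeded the lowest C57 library. Exact permutation tests of 5 against 5 libraries, adjusted over 16 tests, gave p = 0.0282 in control males, 0.0254 in RCF males and 0.0282 in RCF females, and 0.499 in control females, where the difference was -0.303 percentage points. For rRNAs alone, the difference in control females was -0.152 percentage points (exact permutation test, adjusted p 0.0462) and that in control males -0.187 (adjusted p 0.0635). Without C57 control male replicate 5, the difference in control males was -1.77 percentage points for all 37 genes (exact permutation test of 5 against 4 libraries, adjusted p 0.0462) and -0.148 for rRNAs (0.127). Whether the strain difference itself differed between the sexes was not tested.

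**Figure D2:**
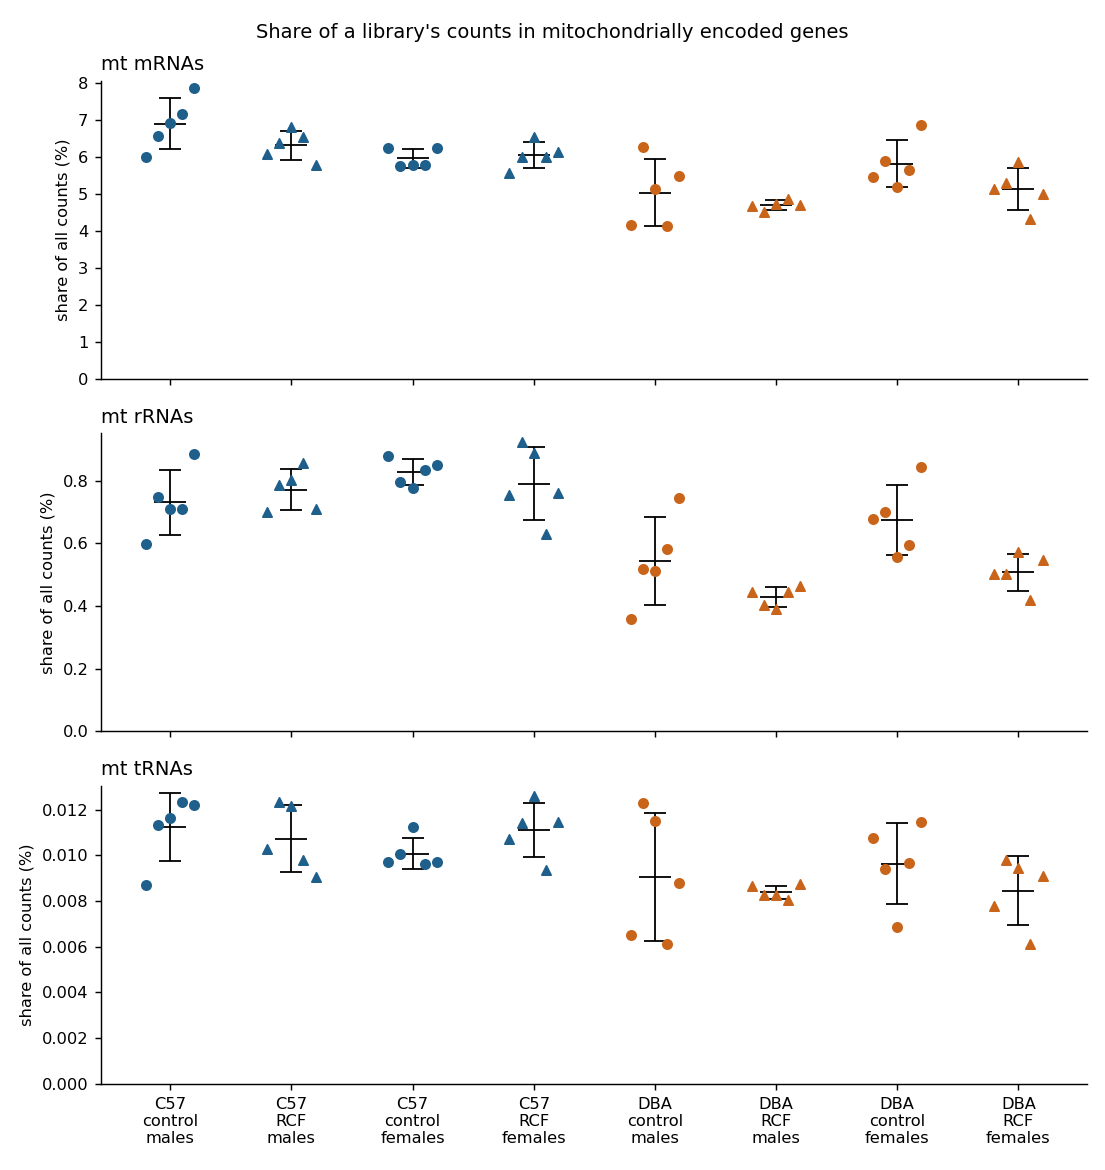
Share of a library's total counts (percent) in mitochondrial mRNAs, rRNAs and tRNAs, 1 point per library; blue is C57, orange DBA, circles controls and triangles RCF, and bars give the mean and SD of 5 libraries. In RCF males the orange triangles lie below every blue triangle in all 3 panels, whereas in control females the strains overlap for mRNAs.

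Gene by gene, 18 of the 20 mitochondrial genes deep enough to test were lower in DBA and none was higher (edgeR quasi-likelihood F test, Benjamini-Hochberg adjusted p under 0.05, mean of the 4 strain differences at equal sex and treatment). Of all 18441 genes tested, 34.2% were called in either direction and 17% as lower. The tested members are 9 mRNAs, both rRNAs and 9 tRNAs, and the other 17, namely mt-Co2, mt-Atp8, mt-Atp6, mt-Co3 and 13 tRNAs, had too few counts. The median log2 fold change (DBA over C57) of the 20 was -0.50, against 0.00021 over all genes tested. The 18 include mt-Nd3 and mt-Nd4l, which lie whole in the segment matched on chromosome 1 and are not read as abundance. Of the 16 tested members wholly outside that segment, 14 were lower. In no tested member did the ranges of the 20 C57 and the 20 DBA libraries separate. The 20 genes come from one small chromosome and share their transcripts, so they are not independent of each other.

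Both rRNAs fell. mt-Rnr1 had 2951 to 4076 CPM (median 3370, scaled by TMM) in the C57 libraries and 1490 to 3713 CPM (median 2136) in the DBA libraries. The log2 fold change of mt-Rnr1 was therefore -0.60, with an SE of 0.062 and an adjusted p of 5.98e-10, and mt-Rnr2 stood at -0.56 with an SE of 0.064 and an adjusted p of 5.34e-09. The ranges overlapped, but the median DBA level of mt-Rnr1 lay below the lowest C57 library. The ratio of rRNA to mRNA counts was 0.104 ± 0.0167 (SD, n = 20) in DBA and 0.124 ± 0.0157 in C57, given as a description with no test.

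Among the mRNAs of complex I, mt-Nd5 changed by -0.40 (SE 0.051, adjusted p 7.19e-08), mt-Nd4 by -0.33 (SE 0.045, adjusted p 2.70e-07), mt-Nd6 by -0.51 (SE 0.076, adjusted p 1.26e-06) and mt-Nd1 by -0.25 (SE 0.057, adjusted p 0.000567) on the log2 scale. The opposite-strand mRNA mt-Nd6 had 84.5 to 165 CPM (median 107) in C57 and 52.4 to 101 CPM (median 83.1) in DBA, so that its median in DBA lay below every C57 library. mt-Cytb of complex III changed by -0.31 (SE 0.045, adjusted p 1.18e-06) and mt-Co1 of complex IV by -0.31 (SE 0.054, adjusted p 2.48e-05). mt-Co1 had 19489 to 28935 CPM (median 22093) in C57 and 12400 to 24828 CPM (median 18454) in DBA, with wide overlap. mt-Nd2 and mt-Nd4l, the remaining tested mRNAs besides mt-Nd3, had log2 fold changes of -0.35 and -0.40.

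Of the 9 tested tRNAs, 7 were lower in DBA, with mt-Tw at -0.65 (SE 0.13), mt-Tp at -0.59 (SE 0.11) and mt-Ti at -0.48 (SE 0.11) among the 4 most abundant. The other called tRNAs, mt-Tq, mt-Te, mt-Tl1 and mt-Tt, ranged from -0.98 to -0.45 at medians of 20 to 65.5 counts. mt-Tm, the most abundant, did not pass (log2 fold change -0.15, SE 0.095, adjusted p 0.224), and neither did mt-Ta (-0.53, SE 0.31, adjusted p 0.186) at a median of 9 counts. By coding strand, the median log2 fold change was -0.59 over the 5 tested genes of the strand that encodes mt-Nd6 and -0.40 over the 15 of the other strand. Besides mt-Nd6, the former are the tRNAs mt-Tq, mt-Ta, mt-Te and mt-Tp. The median over all 9 tested tRNAs was also -0.59, and that over the 9 tested mRNAs -0.35. These pooled medians therefore do not separate strand from class, and a difference by strand within a class was not tested.

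**Figure D3:**
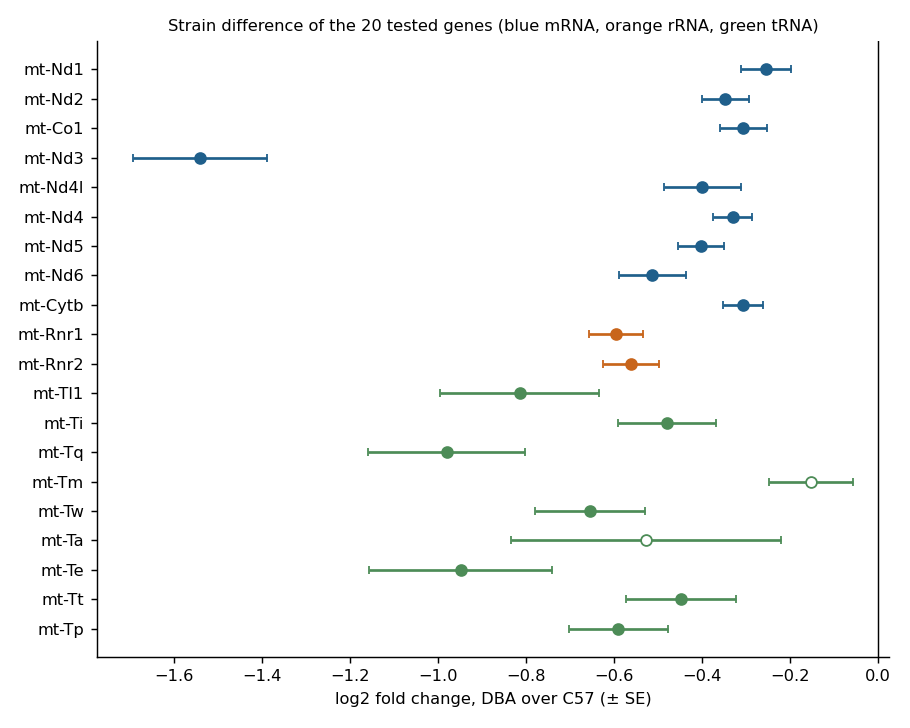
Log2 fold change (DBA over C57, mean of 4 strain differences) with its standard error for the 20 tested mitochondrial genes, grouped as mRNAs (blue), rRNAs (orange) and tRNAs (green); filled points passed the adjusted threshold. All 20 points lie left of 0, with mt-Nd3 at -1.54 and mt-Tm at -0.15 the extremes.

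Within each sex and treatment the same test called 12 of the 20 members lower in control males (background 8.18% lower), 1 in control females (4.14%), 15 in RCF males (4.37%) and 11 in RCF females (9.11%). The 1 in control females was mt-Nd3, a gene of the matched segment that is not read as abundance, at -1.08 (SE 0.30, adjusted p 0.0152). There mt-Co1 and mt-Cytb had log2 fold changes of 0.01 and 0.00, and mt-Rnr1 of -0.26 (adjusted p 0.208). Without C57 control male replicate 5, 8 members were called lower in control males (background 5.43% lower), and all 20 estimates there lay below 0. Over the 4 groups, the call of 18 lower and 0 higher was the same without C57 control male replicate 5 and without the 4 libraries high in Slc17a7. The last choice, and the fit of control males without replicate 5, were made after seeing the data.

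mt-Nd3 had the largest strain difference of the tested members, and its nuclear copy moved the opposite way. mt-Nd3 had 33 to 88 counts (median 57.5) in the C57 libraries and 8 to 42 (median 18.5) in the DBA libraries, which gave -1.54 on the log2 scale (SE 0.15, adjusted p 1.90e-10). Gm28438, the copy with C at position 3, had 21 to 64 counts in 19 C57 libraries, 187 in C57 control male replicate 5, and 392 to 1208 (median 583) in the DBA libraries, which gave 3.68 on the log2 scale (SE 0.19, adjusted p 5.33e-18). The strains did not overlap in Gm28438. Of the counts of the pair, the copy held 34.0% to 55.4% in those 19 C57 libraries, 84.2% in C57 control male replicate 5 and 95.7% to 98.4% in DBA. The sum of the pair was 2.63 to 6.90 CPM of total counts in the 19 C57 libraries and 16.2 to 55.0 CPM in DBA, so the sum was higher in DBA although mt-Nd3 itself was lower. Without C57 control male replicate 5 the log2 fold change of mt-Nd3 was -1.57 (adjusted p 2.18e-10). Reads were not analysed here, so which base they carried at position 3 was not tested.

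The other nuclear copies did not follow Gm28438, with 1 exception. Gm10222, the copy of mt-Nd4l, was higher in DBA by 2.10 (SE 0.39, adjusted p 4.46e-05) at medians of 3 counts per library over all 40. Gm29216, Gm28661, Gm10925 and Gm28437 (copies of mt-Co1, mt-Co2, mt-Atp6 and mt-Co3) were lower in DBA with log2 fold changes of -0.37, -0.44, -0.41 and -0.35. The mitochondrial mRNAs wholly outside the segment ran from -0.51 to -0.25. Gm28439, the copy of mt-Nd4, had at most 11 counts and was not tested. Copies of other segments on chromosomes 2 and 13 (Gm13339, Gm13340, Gm13341 and Gm4076) were lower as well, from -0.54 to -0.35.

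**Figure D4:**
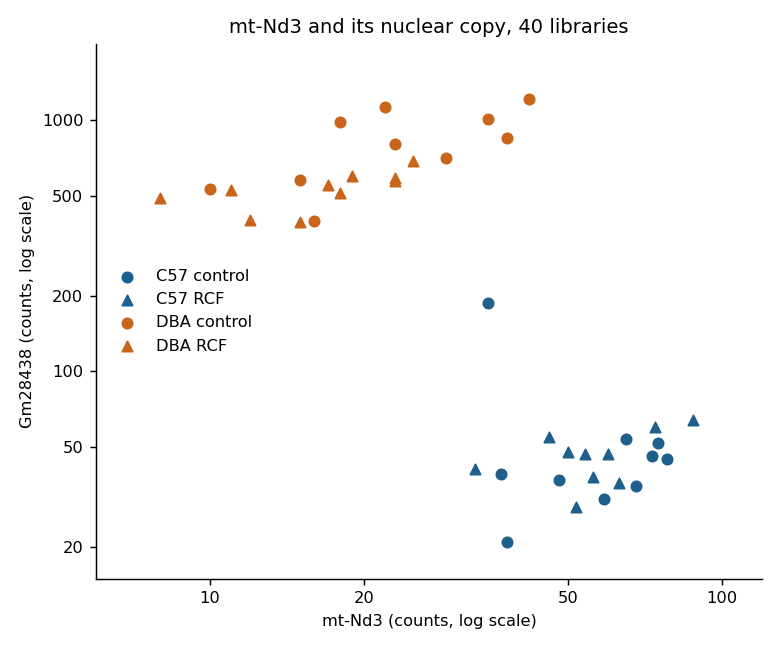
Counts of mt-Nd3 (horizontal) and of its chromosome 1 copy Gm28438 (vertical) in each of 40 libraries, both on log scales; blue is C57, orange DBA, circles controls and triangles RCF. DBA libraries sit at 392 to 1208 counts of the copy and C57 libraries at 21 to 64, with 1 C57 control between them at 187.

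Some nuclear genes of the same complexes were lower in DBA as well. Of the tested nuclear subunits, 12 of 37 were lower and 2 higher for complex I (median log2 fold change -0.10), 5 of 9 lower for complex III (-0.12), 6 of 10 lower for complex IV (-0.14) and 7 of 16 lower for ATP synthase (-0.10), with none higher in the last 3 lists. Over all genes in this comparison 34.2% were called and 17% were lower. The 14 called of complex I (37.8%) are near the share called in either direction. Taken by direction, 32.4% of complex I were lower, against 17% of all genes, and 6 of the 37 estimates lay above 0. For complex III 55.6% were called, for complex IV 60% and for ATP synthase 43.8%, all of them lower. The members with the smallest p included Ndufc2 (-0.20), Ndufa2 (-0.19), Ndufb10 (-0.16) and Ndufa5 (-0.15) of complex I, and Uqcrh (-0.20), Uqcrq (-0.19), Uqcr11 (-0.18) and Uqcrfs1 (-0.13) of complex III. They were Cox7c (-0.32), Cox5b (-0.24), Cox6c (-0.24) and Cox7b (-0.16) of complex IV, and Atp5h (-0.31), Usmg5 (-0.19), Atp5g3 (-0.13) and Atp5e (-0.16) of ATP synthase. Complex II, which has no mitochondrially encoded subunit, had 1 of 4 higher, Sdhb (0.31), and none lower.

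The genes that maintain and read the mitochondrial chromosome did not move one way. Of 17 genes of replication and transcription, Mgme1, an exonuclease of mitochondrial DNA, was lower (-0.31), as was Mterf3 (-0.20), and the topoisomerase gene Top1mt was higher (0.17). Of 29 genes of RNA processing and decay, Ptcd3 (-0.31) and Hsd17b10 (-0.29), a subunit of the mitochondrial RNase P, were lower, and 5 were higher, among them the tRNA modification enzyme Gtpbp3 (0.39) and the RNA helicase Supv3l1 (0.22). Of 78 rows named as mitochondrial ribosomal proteins, 17 were lower and 5 higher, with Mrpl3 (-0.48), Mrpl55 (-0.60), Mrps14 (0.75) and the pseudogene Mrpl48-ps (3.03) having the smallest p. Of 14 genes of general mitochondrial content, 5 were lower, including Phb (-0.22), Hspd1 (-0.10) and the carriers Slc25a3 (-0.12) and Slc25a4 (-0.12). Of 8 regulators of biogenesis, Ppargc1b was higher (0.30). Against the 34.2% of all genes called, the share called was 17.6% for replication and transcription, 24.1% for RNA processing and decay, 22 of 78 for ribosomal proteins, 35.7% for mitochondrial content and 12.5% for regulators of biogenesis. These shares, which take both directions together, are near or below that background. By direction, 35.7% of mitochondrial content were lower and none higher, against 17% of all genes lower, though 5 of the 14 estimates lay above 0. The share lower was 21.8% for ribosomal proteins, 11.8% for replication and transcription, 6.9% for RNA processing and decay and 0% for regulators of biogenesis. The shares of these last lists are near or below 17% and are no result about them.

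Markers of several non-neuronal cell types were lower in DBA more often than all genes were (17%). Lower in DBA were 7 of 11 markers of mature oligodendrocytes (median log2 fold change -0.41), 8 of 10 of microglia (-0.31), 8 of 9 of endothelium and pericytes (-0.33), 5 of 5 of erythroid cells (-1.53), 4 of 10 of astrocytes (1 higher), 3 of 15 of dopamine neurons (-1.49), 1 of 10 of forebrain glutamate neurons and the 1 tested of hindbrain. The erythroid rows ran from -7.10 (Hba-a2) to -1.09 (Hba-a1), and what sets them apart from each other was not tested. Of the hypothalamic list, 5 of 10 were higher, and of the general neuron list 1 of 10 was lower and 1 higher. The shares called of the dopamine neuron list (20%), the forebrain glutamate list (10%) and the neuron list (20%) are below the 34.2% of all genes called and are no result about those lists. The summed level of the oligodendrocyte list was 7373 to 25221 CPM in C57 and 3840 to 15232 CPM in DBA, that of the dopamine neuron list 219 to 8687 CPM in C57 and 256 to 11060 CPM in DBA, and that of the neuron list 6819 to 14357 CPM and 6380 to 9279 CPM. The part of these differences in tissue content in the strain difference of the mitochondrial genes was not tested.

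Across libraries, with group means removed (n = 40), the mitochondrial mRNA share rose with the rRNA share of the same library (Pearson r = 0.633, permutation p 0.00085, adjusted over 8 relations 0.0068; Spearman rho = 0.615, adjusted permutation p 0.00272; r = 0.591 without the 2 libraries farthest from the median). Both shares have the same total as denominator. With the oligodendrocyte list, r was 0.549 (adjusted permutation p 0.0193) and rho 0.428 (adjusted permutation p 0.0845), with r = 0.433 without the 2 farthest libraries, 0.283 in the C57 libraries and 0.732 in the DBA libraries. The rank relation therefore did not pass after adjustment. None of the other 6 relations passed: r was -0.0428 with total counts, 0.329 with nuclear respiratory chain subunits, 0.215 with the neuron list, 0.00117 with the dopamine neuron list, 0.187 with astrocytes and 0.214 with the nuclear RNA Malat1 (adjusted permutation p for Pearson r 0.118 to 0.995).

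No mitochondrial gene passed the test for RCF against control in any strain and sex. The study's 4 comparisons called 0 of 20 members in C57 males (0.0108% of all genes called), C57 females (0.00542%), DBA males (0.0163%) and DBA females (0.0163%), and the mean of the 4 called 0 as well (0.0217%). DESeq2 and limma voom also called 0 of the members in each. At an unadjusted p under 0.05 there were 0 members in C57 males, 1 in C57 females, 3 in DBA males, 9 in DBA females and 7 in the mean of the 4. Of all 18441 genes tested, 1304, 2301, 1239, 2261 and 1282 were under it, in the same order. In simulated data for C57 males, with 50 genes changed at each of 4 sizes, the test recovered 72% changed 1.5-fold and 10% changed 1.2-fold. Changes as small as the latter could mostly not be detected. The real RCF comparisons called only 1 to 4 genes, so their adjusted threshold was stricter than in the simulation. These percentages therefore do not give the power for the mitochondrial genes.

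The estimates, none of which passed, lay mostly below 0 in all groups but C57 females. In DBA females, 18 of 20 members had log2 fold changes (RCF over control) below 0, with a median of -0.30 against -0.014 over all genes, and in DBA males 20 of 20, with a median of -0.21. In C57 males 14 of 20 were below 0 (median -0.16), and without C57 control male replicate 5 the count was again 14, with a median of -0.091 and 0 called. In C57 females 15 of 20 were above 0 (median 0.059). The smallest adjusted p values were those of the rRNAs in DBA females, with mt-Rnr1 at -0.48 (SE 0.12, p 0.00044, edgeR adjusted p 0.198) and mt-Rnr2 at -0.47 (SE 0.13, edgeR adjusted p 0.204). mt-Rnr1 had 2493 to 3713 CPM (median 2805) in the 5 DBA control females and 1686 to 2360 CPM (median 2103) in the 5 DBA RCF females. In C57 females its log2 fold change was near 0, with 3169 to 3707 CPM in controls and 2951 to 3771 CPM after RCF.

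Of the other members named in every comparison, mt-Nd1 had a log2 fold change of -0.34 (SE 0.11), mt-Co1 of -0.23 (SE 0.11), mt-Cytb of -0.23 (SE 0.090) and mt-Nd6 of -0.07 (SE 0.15) in DBA females, with edgeR adjusted p from 0.251 to 0.880. In C57 females mt-Nd6 was at 0.34 (SE 0.15, edgeR adjusted p 0.354), the only member there with an unadjusted p under 0.05. The difference of the RCF effects between the strains (DBA minus C57) called 0 of 20 members (0.0108% of all genes), with 6 at an unadjusted p under 0.05, and that between the sexes called 0 of 20 (0.00542%), with 1. Of all 18441 genes tested, 1107 and 1564 had an unadjusted p under 0.05 there, in this order.

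**Figure D5:**
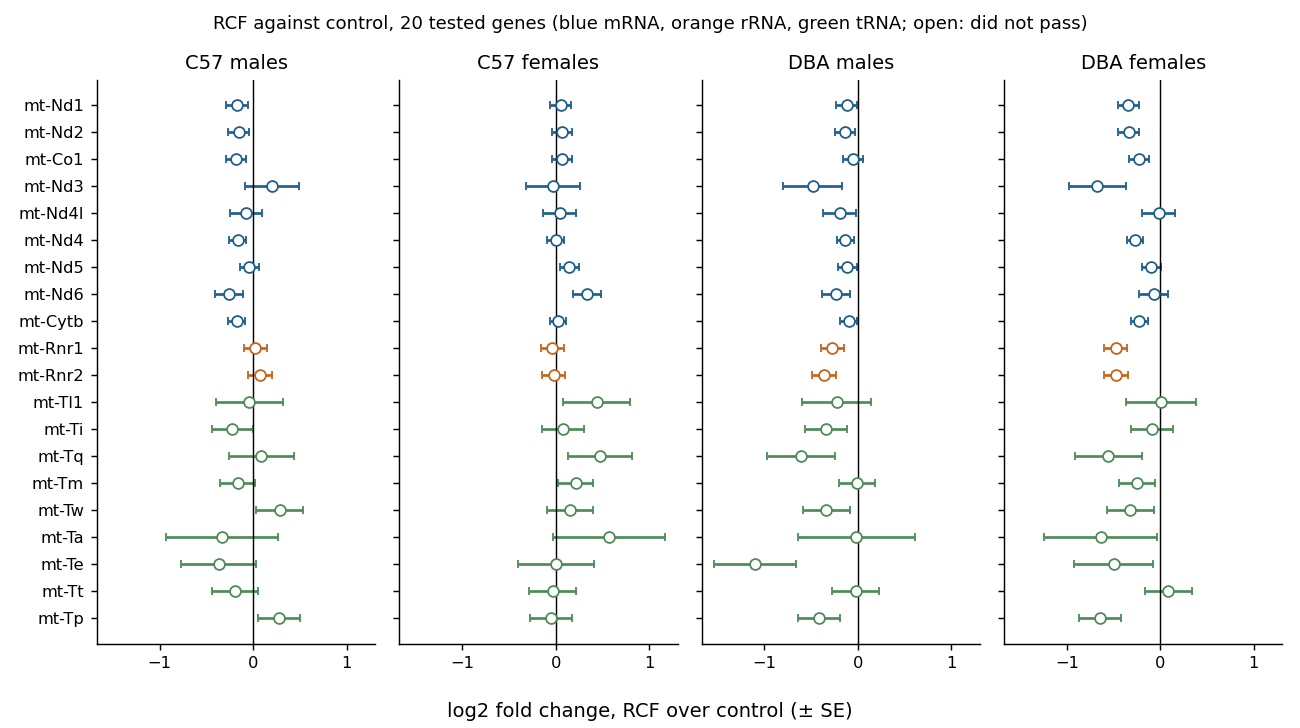
Log2 fold change (RCF over control) with its standard error for the 20 tested mitochondrial genes in C57 males, C57 females, DBA males and DBA females; colours mark mRNAs (blue), rRNAs (orange) and tRNAs (green), and open points did not pass the adjusted threshold. No point is filled; the rRNAs of DBA females lie at -0.48 and -0.47.

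The shares of counts in RCF and control libraries did not pass either, once adjusted. In DBA females, the rRNA share was 0.679%, 0.700%, 0.558%, 0.594% and 0.842% in controls and 0.501%, 0.502%, 0.571%, 0.418% and 0.548% after RCF, where 1 RCF library exceeded the lowest control. The difference of -0.166 percentage points had an exact permutation p of 0.0159 and, adjusted over the 28 share tests, 0.0741. Without DBA control female replicate 3, which is high in Slc17a7, the difference was -0.195 (adjusted exact permutation p 0.037). In DBA males the rRNA difference was -0.114 (adjusted exact permutation p 0.242), and -0.160 without DBA control male replicate 1 (0.0397). In each sex of DBA, the library named was the only 1 of 10 whose removal made the rRNA difference pass. In C57 males and females it was 0.0410 and -0.0359 (adjusted exact permutation p 0.667 and 0.734), and in C57 males without control replicate 5 it was 0.0797 (0.239). No exact test of 5 against 5 can go below 0.00794.

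Over the 4 strain and sex groups together, the share of all 37 genes was 6.19% after RCF and 6.64% in controls, a difference of -0.451 percentage points that did not pass (permutation p 0.0243, adjusted 0.0971). Each of the 40 libraries was left out in turn, and 2 of these omissions moved this result over the threshold. Without C57 control male replicate 1 the difference was -0.515 (adjusted permutation p 0.0492), and without DBA control male replicate 1 it was -0.518 (0.0397). Each of these 2 held the lowest share of all 37 genes in its control group. mRNAs and rRNAs alone also passed without either of these libraries. Without C57 control male replicate 5 the difference was -0.381 (adjusted permutation p 0.178). None of 8 tests of whether the RCF difference in shares itself differed between strains or sexes passed; the smallest p was that of the rRNA share between strains (-0.143 percentage points, permutation p 0.0228, adjusted 0.183). The 20 genes tested singly and the shares use the same counts and are not separate evidence.

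Females had a higher mitochondrial rRNA share than males, while no single mitochondrial gene passed. The mitochondrial rRNA share was 0.700% in females and 0.618% in males, a difference of 0.0816 percentage points (permutation test within strain and treatment, p 0.00662, adjusted 0.0371), whereas the mRNA share was 5.75% in each. Without C57 control male replicate 5 the rRNA difference was 0.0913 (adjusted permutation p 0.0101). It no longer passed without any one of 10 libraries, namely C57 RCF male replicates 1 and 5, C57 RCF female replicates 2 and 3, C57 control female replicate 1, DBA control male replicates 2 and 3 and DBA control female replicates 1, 2 and 5, where adjusted p reached up to 0.0784. In the gene test 0 of 20 members passed (0.146% of all genes called). At an unadjusted p under 0.05 there were 5 members, and 1785 of all 18441 genes tested. mt-Rnr2 was at 0.20 (SE 0.064, edgeR adjusted p 0.269) and mt-Rnr1 at 0.17 (SE 0.062, edgeR adjusted p 0.344), female over male.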

How the data were processed

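The table deposited by the authors holds raw counts for 40 libraries, as whole numbers. Raw data were handled with bcl2fastq 2.20, cutadapt 1.11 and FastQC on GRCm38 (mm10), per the submitters' processing notes. Which aligner, counter, strand option and annotation were used, and what was done with multi-mapping reads, is not given in the sources used here. Symbols, coordinates and sequences came from GENCODE M21; 55144 of 55471 identifiers matched a symbol and 327 did not. The members and the gene lists were chosen with earlier results of these data known.

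All libraries entered one edgeR 4.0.16 fit (R 4.3.3; TMM factors 0.905 to 1.09, filterByExpr, a mean per group, robust quasi-likelihood F test, 32 residual degrees of freedom), with Benjamini-Hochberg adjustment over 18441 genes and a threshold of 0.05. Scripts were tested on simulated data. DESeq2 1.42.0 and limma 3.58.1 voom were alternatives. Shares are counts over a library's total and were compared by permutation over libraries (SciPy 1.17.1). Nuclear copies were matches of member sequences to annotated transcripts by blastn 2.17.0, at least 95% identical over at least 75 nt. Named in each comparison are at most 6 members per direction by p, beside mt-Rnr1, mt-Rnr2, mt-Nd1, mt-Nd6, mt-Co1 and mt-Cytb where tested, the 4 tRNAs with the highest mean counts, and up to 4 genes of a list. Gm28438 and the other copies, mt-Nd2, mt-Nd4l and the remaining tRNAs were named after their values were seen. Alternatives were other tools, size factors, filters and denominators, a replicate block and leaving out each library (10000 resamples for its share tests).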

Additional observations from a re-analysis of the deposited data

Results flagged for a closer look

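Of 104 sets of 5 libraries checked for a single distant library (13 measures in 8 groups), 5 stood out, where chance alone gives about 5.2. The mitochondrial tRNA share was 0.0112% in C57 control female replicate 3, against 0.00964% to 0.0101% in the other 4, and 0.00871% in C57 control male replicate 1, against 0.0113% to 0.0123%. In C57 control male replicate 5, mt-Rnr1 was 4076 TMM-scaled CPM against 2966 to 3249, and Gm28438 was 8.16 CPM against 1.02 to 2.25. mt-Nd3 was 1.59 CPM in DBA control male replicate 2, against 0.541 to 0.773 in the other 4.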

How the results depend on the processing

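Under DESeq2, limma voom, DESeq2 size factors, no low-count filter, library sizes from nuclear genes, the replicate block and without the 4 libraries high in Slc17a7, the count of members lower in DBA was 18, with 0 higher, and every RCF, sex and interaction count was 0; this also held for each library left out. In control males alone, the count lower in DBA was 12 with all libraries and 8 without C57 control male replicate 5. The replicate numbers did not pair the libraries: correlations of same-numbered libraries ran from -0.274 to 0.176. With the replicate block, mt-Rnr1 changed by -0.60 between strains and the rRNA share after RCF in DBA females by -0.166 percentage points (adjusted permutation p 0.292), and no call changed.

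Differences near 0 changed sign. The mRNA share of females against males (-0.000438 percentage points) was 0.0175 as log2 of the share and 0.0483 without the 4 libraries, and the tRNA share (-3.18e-05) was 0.00596 and 0.000118. Without the 4 libraries, in RCF against control in C57 females the rRNA share was 0.00407, mt-Rnr1 0.0082, mt-Rnr2 0.024 and mt-Nd1 -0.00052, and the rRNA share in DBA females passed at -0.195. The RCF difference between sexes for mt-Nd1 was -0.0051 with the replicate block, -0.020 with limma voom and -0.049 without the 4 libraries, where that of mt-Co1 was -0.0072. The relation with dopamine markers was -0.00111 with nuclear counts as denominator.

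With 1 library left out, the ranges of results that changed sign, call or size were as follows. For shares in percentage points, RCF in C57 females ran from -0.0977 to 0.180 (all genes), -0.0385 to 0.206 (mRNAs) and -0.0688 to 0.00407 (rRNAs). The mean RCF difference ran from -0.518 to -0.376 (all genes), -0.438 to -0.306 (mRNAs) and -0.0804 to -0.0563 (rRNAs). RCF in DBA males ran from -0.160 to -0.0638 (rRNAs) and -0.00138 to 0.000157 (tRNAs), and in DBA females from -0.195 to -0.124 (rRNAs). Females against males ran from -0.0655 to 0.0761 (mRNAs), 0.0701 to 0.0942 (rRNAs) and -0.000214 to 0.000171 (tRNAs). For log2 fold changes, RCF ran in C57 males from -0.024 to 0.11 (mt-Rnr1), in C57 females from -0.080 to 0.0083 (mt-Rnr1), -0.083 to 0.024 (mt-Rnr2) and -0.00032 to 0.093 (mt-Nd1), in DBA males from -0.22 to 0.00028 (mt-Nd1) and -0.15 to 0.047 (mt-Co1), and in DBA females from -0.12 to 0.027 (mt-Nd6). The RCF difference between sexes ran from -0.059 to 0.051 (mt-Nd1) and -0.014 to 0.088 (mt-Co1). The cause was not tested.

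Depth limits the 17 untested members, and the 6 mRNAs that lie whole in the mitochondrial segment matched on chromosome 1 are not read as abundance.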
